A study of Mus musculus with 18 samples.

Results

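The genes described here were 10 that set or carry epithelial identity: the adhesion genes Cdh1 and Epcam, the transcription factors Ehf, Elf3, Grhl1, Grhl2, Foxa2 and Klf5, and the splicing regulators Esrp1 and Esrp2. They were taken by symbol from a table of 25791 genes, and all 10 were found. Of these, 9 reached 1 FPKM (fragments per kilobase of transcript, scaled to sequencing depth) in at least 3 libraries and were tested among 13898 such genes. Grhl1 passed 1 FPKM in 1 of 18 libraries and is given by its levels only.

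Messenger RNA had been sequenced from cross sections of uterus of 12 week old mice, a mixed strain of 129Sv X C57BL/6, in 18 libraries. Wild-type animals (WT) were compared with animals whose uterus lacks Tsc2 (KO), the gene for a subunit of the complex that restrains the kinase complex mTORC1. Each genotype was studied in 3 hormonal states. Intact mice kept their ovaries, ovx mice lost them at 4 weeks of age, and E2 mice lost them at the same age and then carried a pellet of 17β-estradiol (0.5 mg, made to release over 90 days) for 8 weeks. The 6 groups held 3 libraries each. As a model, the KO is described by its labels as specific to the uterus, with no Cre driver, targeted cell type or deleted exon named. No label states that libraries of a group came from separate animals, so p-values measure the spread between these samples, which may be technical.

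The inner lining of the uterus is a simple luminal epithelium that folds into glands, surrounded by stroma and smooth muscle. Epithelial cells hold each other through E-cadherin, and a small set of transcription factors, among them grainyhead-like and ETS-family proteins, keeps adhesion and polarity genes on. Factors of the ZEB and SNAI families repress the same genes by binding E-boxes in their promoters, and ESRP proteins give many transcripts their epithelial splice form.

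The promoter sequences of 2 members are shown because they carry such letters close to the start, and because these genes had the 2 highest WT differences between E2 and ovx among the tested members. RefSeq promoter sequences on GRCm38.p6 were at hand for 4 of 10 members. Each line gives the 250 bases before the transcription start, 5′ to 3′ on the gene's strand. Capitals mark the E-box CACCTG or its reverse complement CAGGTG and the grainyhead core ACCGGT, all searched on both strands.
Epcam, chr17:87635729-87635978, plus strand: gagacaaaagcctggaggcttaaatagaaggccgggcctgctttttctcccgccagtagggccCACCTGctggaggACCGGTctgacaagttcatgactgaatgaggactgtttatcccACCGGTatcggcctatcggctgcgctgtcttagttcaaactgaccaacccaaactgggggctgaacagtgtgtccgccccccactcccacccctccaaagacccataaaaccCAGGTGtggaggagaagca
Elf3, chr1:135258473-135258722, minus strand: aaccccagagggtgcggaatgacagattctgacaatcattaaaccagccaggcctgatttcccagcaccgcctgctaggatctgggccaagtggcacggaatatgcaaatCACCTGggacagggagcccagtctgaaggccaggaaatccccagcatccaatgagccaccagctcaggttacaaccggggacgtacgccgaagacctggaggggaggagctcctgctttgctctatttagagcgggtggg
The Epcam window held the E-box at -187 and -19 and the grainyhead core at -174 and -131, counted in bases from the start to the first base of the match. The Elf3 window held 1 E-box, at -140, and no grainyhead core. None of the windows of Foxa2 and Grhl1, the other members with sequences, held either. The 2 windows shown were chosen partly for their matches, so the shares that follow describe them and test nothing. Of 32851 RefSeq promoter windows of the same length, 17.2% held the E-box at least 1 time and 2.06% at least 2 times, while 1.86% held the grainyhead core and 0.0274% held it at least 2 times. The core of ETS-family sites, GGAA, stood 4 times in the Elf3 window and is in 93.4% of all windows. These are matches of letters, and no binding was measured.

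The libraries carried their labelled tissue: the 30 genes of a list of simple epithelial markers other than the members summed to between 164 and 2006 FPKM, and 10 smooth muscle genes to between 73.6 and 1719 FPKM. Tsc2 ran from 1.62 to 3.33 FPKM in KO and from 2.04 to 3.49 in WT, with a lower KO mean in every state and overlapping libraries in the ovx and E2 states. A gene-level value spans exons outside the deleted part, so it does not check the deletion. Total FPKM was between 216032 and 591668 per library, and depth in reads is unknown. Each library's mean correlation with the others of its group, over all tested genes, ran from 0.891 in WT intact replicate 4 to 0.981 in WT ovx replicate 1. For KO E2 replicate 2 it was 0.898 with the other KO E2 libraries and 0.946 with the WT E2 libraries. WT intact replicates 1 and 2 also lay closer to the KO intact libraries (0.927 and 0.937) than to their own group (0.907 and 0.926). KO ovx replicate 4 had 0.921 with its group, the lowest of the KO ovx libraries. The libraries were also clustered into 4 sets by shared steps in their lowest values, a grouping read from the values and not from the labels. The number of sets was fixed in the clustering and not found by it. The share of low values on a common step had a median of 7.33% for pairs within a set and 1.59% for pairs between sets. The ranges overlapped, with a lowest share of 3.56% within a set and a highest of 3.98% between sets. Sets 1 and 2 held the intact libraries and sets 3 and 4 the others, so that the difference between intact and ovariectomized uteri cannot be told apart from a difference between sets.

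In WT uteri 7 of the 9 tested members were higher with estradiol than after ovariectomy alone, where 32.3% of all tested genes were higher. In KO none of the 9 was called between the same states by limma (27.1% of all tested genes were called in either direction, and 1 member had an unadjusted p under 0.05). Cdh1, Epcam, Elf3, Ehf, Grhl2 and Esrp1, 6 of 9, differed between the genotypes in that response by limma's interaction contrast (6.95% of all tested genes were called in that direction). Under estradiol 4 of these (Cdh1, Ehf, Grhl2 and Esrp1) were called lower in KO than in WT, where 3.58% of all tested genes were lower. Foxa2 and Klf5 followed other patterns.

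**Figure D1:**
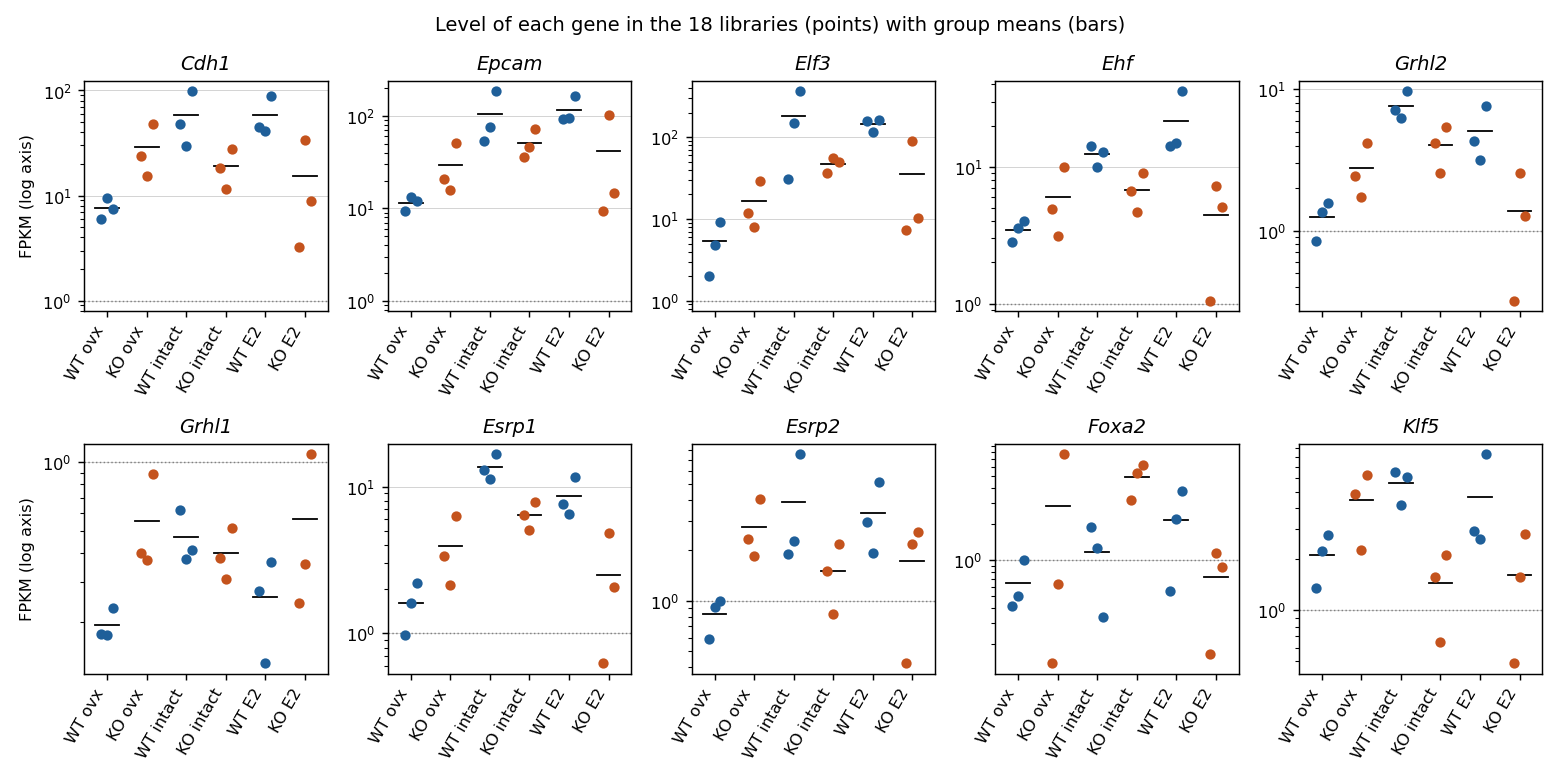
Each panel plots 1 gene, with its FPKM on a log axis and the 6 groups along the horizontal axis. Points are libraries, bars are group means and the dotted line marks 1 FPKM. Cdh1 lies between 5.99 and 9.44 FPKM in the 3 WT ovx libraries and between 40.9 and 88.0 in the 3 WT E2 libraries, and Foxa2 is highest in KO ovx replicate 4 at 7.67.

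Cdh1 encodes E-cadherin, the adhesion molecule of adherens junctions. It stood at 5.99, 9.44 and 7.49 FPKM in WT ovx replicates 1, 2 and 3, and at 44.6, 40.9 and 88.0 in WT E2 replicates 1, 2 and 5. In KO ovx replicates 1, 2 and 4 it stood at 23.7, 15.2 and 48.2, and in KO E2 replicates 1, 2 and 3 at 3.23, 33.5 and 8.94. Every WT E2 library was above every WT ovx library, every KO ovx library was above every WT ovx library, and the KO ovx and KO E2 libraries overlapped. In intact uteri Cdh1 stood at 48.4, 29.4 and 97.8 in WT replicates 1, 2 and 4 and at 18.5, 11.5 and 27.9 in KO replicates 1, 3 and 4, with no overlap. The Cdh1 row of the table spans 248 kb on chromosome 8 (109127267 to 109375339 as the table gives it) and shares that span with 2 other rows, LOC100504495 and Tmco7. LOC100504495 ran from 1.48 to 138 FPKM, and reads of rows that overlap cannot be told apart in this table.

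Epcam encodes an epithelial surface molecule that links neighbouring cells. It stood at 9.38, 13.3 and 11.9 FPKM in WT ovx and at 93.0, 95.4 and 163 in WT E2, in the same order of replicates. In KO it stood at 20.8, 15.9 and 50.8 in ovx and at 9.37, 101 and 14.7 in E2. The KO E2 group was split, with replicate 2 inside the WT E2 range and replicates 1 and 3 near WT ovx. The intact libraries held 53.5, 76.3 and 184 FPKM in WT and 36.0, 45.8 and 71.9 in KO, and these overlapped.

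Elf3 and Ehf encode ETS-family transcription factors of epithelia. Elf3 had the widest range of the tested members, with its lowest value of 1.99 FPKM in WT ovx and its highest of 365 in WT intact. It stood at 1.99, 4.78 and 9.24 in WT ovx, at 159, 116 and 163 in WT E2, at 11.8, 8.08 and 29.4 in KO ovx and at 7.41, 90.4 and 10.3 in KO E2. All 3 KO E2 libraries were below all 3 WT E2 libraries. Its WT intact libraries were far apart, at 31.2, 151 and 365, and enclosed the KO intact libraries at 36.8, 56.0 and 50.4. Ehf stood at 2.82, 3.57 and 4.02 in WT ovx, at 14.3, 14.9 and 35.5 in WT E2, at 4.94, 3.12 and 9.97 in KO ovx and at 1.05, 7.28 and 5.07 in KO E2. Its KO E2 libraries all lay below its WT E2 libraries, and its intact libraries did not overlap between WT (10.04 to 14.3) and KO (4.70 to 9.02).

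Grhl2, a grainyhead-like factor that activates Cdh1 and claudin genes, stood at 0.842, 1.34 and 1.57 FPKM in WT ovx and at 4.33, 3.16 and 7.66 in WT E2. In KO it stood at 2.44, 1.72 and 4.16 in ovx and at 0.319, 2.54 and 1.27 in E2. The libraries of the genotypes did not overlap in any of the 3 states, with KO higher in ovx and lower in intact and E2. The row shares its span on chromosome 15 with LOC100503499, which ran from 1.14 to 14.2 FPKM. Its relative Grhl1 stayed between 0.132 FPKM in WT E2 replicate 2 and 1.09 in KO E2 replicate 3, and its group means ran from 0.194 in WT ovx to 0.562 in KO E2 with overlap between neighbours.

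Esrp1 and Esrp2 encode the epithelial splicing regulators. Esrp1 stood at 0.979, 1.62 and 2.20 FPKM in WT ovx and at 7.57, 6.48 and 11.7 in WT E2. In KO it stood at 3.37, 2.13 and 6.30 in ovx and at 0.624, 4.81 and 2.06 in E2, below all WT E2 libraries. Its intact libraries held 13.0, 11.3 and 16.7 in WT and 6.37, 5.09 and 7.87 in KO. Esrp2 had group means from 0.832 ± 0.214 in WT ovx to 3.91 ± 3.16 in WT intact (SD, n = 3), and its KO E2 libraries at 0.420, 2.19 and 2.58 overlapped the WT E2 libraries at 2.94, 1.93 and 5.17.

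Foxa2, a forkhead factor of uterine glands, was low in most libraries and reached 1 FPKM in 10 of 18. It stood at 1.90, 1.28 and 0.336 FPKM in WT intact and at 3.19, 5.36 and 6.18 in KO intact, the reverse of the order of genotypes in the other 8 tested members. In KO ovx it stood at 0.139 and 0.637 in replicates 1 and 2 and at 7.67 in replicate 4. That library also held the gland genes of a list of 10 at a sum of 252 FPKM, against 4.02 and 4.53 in the other KO ovx libraries. Most of that sum was Spink3, a protease inhibitor gene, at 218 FPKM. Other lists were uneven in KO ovx too, from 7.75 to 157 FPKM for adipocyte, 29.4 to 550 for macrophage and 3.74 to 277 for neutrophil genes. In WT, Foxa2 held 0.416, 0.507 and 1.01 in ovx and 0.554, 2.20 and 3.79 in E2, which overlapped. In KO E2 it held 0.165, 1.15 and 0.872.

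Klf5, a zinc-finger factor of proliferating and luminal epithelium, stood at 6.56, 4.16 and 6.09 FPKM in WT intact and at 1.58, 0.652 and 2.12 in KO intact, with no overlap. It stood at 1.35, 2.23 and 2.78 in WT ovx and at 4.83, 2.25 and 6.31 in KO ovx. In E2 the WT libraries held 2.92, 2.63 and 8.32 and the KO libraries 0.486, 1.57 and 2.80. Klf5 was the one member whose lowest group mean was KO intact (1.45 ± 0.743), where the other 9 had theirs in WT ovx.

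The first comparison asked how the members responded to estradiol in WT. From ovx to E2, 7 of 9 rose, called at an adjusted p under 0.05 in limma's moderated test over all tested genes. The median of the 9 log2 differences of FPKM + 1 was 1.87, against 0.24 over all tested genes. Elf3 rose by 4.69 ± 0.87 (SE; adjusted p = 0.000727), Epcam by 3.20 ± 0.69 (adjusted p = 0.00186) and Cdh1 by 2.70 ± 0.64 (adjusted p = 0.0036). Ehf rose by 2.22, Esrp1 by 1.87, Grhl2 by 1.37 and Esrp2 by 1.19, while Foxa2 (0.83, adjusted p = 0.266) and Klf5 (0.74, adjusted p = 0.153) did not pass. The libraries of the 7 genes did not overlap between the states, as was the case with higher E2 values for 43.5% of all tested genes. Within set 3 (1 against 2 libraries) and set 4 (2 against 1), Cdh1 was higher by 3.53 and 2.07, Elf3 by 4.89 and 4.56, and all 9 members had positive differences. Esrp2 kept its call only without WT E2 replicate 2 and reached an adjusted p of 0.135 with another library left out.

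Other epithelial genes rose in the same comparison. Of 29 tested simple epithelial genes that are not members, 24 rose and none fell, with a median of 2.33. Of 8 tested genes of squamous epithelium 7 rose, Krt5 by 3.64 and Krt6b by 3.50, and so did 4 of 8 macrophage genes. Muc1, a luminal mucin, rose by 4.82, and the keratin genes Krt7 and Krt19 by 4.82 and 3.54. Of 12 tested partners of cadherins at the adherens junction, 6 rose, among them Jup (plakoglobin, 2.36), Pvrl2 (a nectin, 1.91) and Ctnnb1 (β-catenin, 1.42). Of 11 tested repressors of epithelial genes and mesenchymal genes, 5 fell and none rose: Snai1 fell by 1.98, Tcf4 by 1.18 and Twist1 by 1.15, and Zeb1 and Zeb2, named after their values were seen because they are below 5 FPKM, fell by 1.45 and 0.89. Of the 10 stroma genes 5 fell, and of the 10 blood endothelial genes 7 fell. The summed stroma level was 161 to 238 FPKM in WT E2 against 521 to 616 in WT ovx, and the summed simple epithelial level 1289 to 2006 against 164 to 271. No stroma gene was listed at 0 in any library, and 1 simple epithelial gene, Ldoc1, was at 0 in at least 1. In whole cross sections, fewer cells of a type and less RNA per cell cannot be told apart.

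The second comparison set WT intact against WT ovx and shares its WT ovx libraries with the first. In it 8 of 9 tested members were higher in WT intact than in WT ovx, where 29.9% of all tested genes were higher, and the libraries of the 8 did not overlap, which 40% of all tested genes showed in that direction. Elf3 was higher by 4.43 ± 0.87, Epcam by 2.89 ± 0.69, Cdh1 by 2.63 ± 0.64, Esrp1 by 2.51 ± 0.40, Grhl2 by 1.94 ± 0.36 and Ehf by 1.58 ± 0.47. Esrp2 (1.25, adjusted p = 0.0265) and Klf5 (1.09, adjusted p = 0.0429) passed by less. Klf5 kept the call only without WT intact replicate 2. Esrp2 lost it without WT intact replicate 4 or either of WT ovx replicates 1 and 2, and Ehf lost it without WT ovx replicate 1 (adjusted p = 0.0549). Foxa2 (0.35, adjusted p = 0.662) did not pass. Of 8 proliferation genes 8 were higher and of 10 smooth muscle genes 9 were lower, and the summed smooth muscle level was 73.6 to 464 FPKM in WT intact and 708 to 859 in WT ovx. Their part in the members' values was not tested. Between WT E2 and WT intact none of the 9 members was called by limma, with 13.9% of all tested genes called, and none had an unadjusted p under 0.05.

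**Figure D2:**
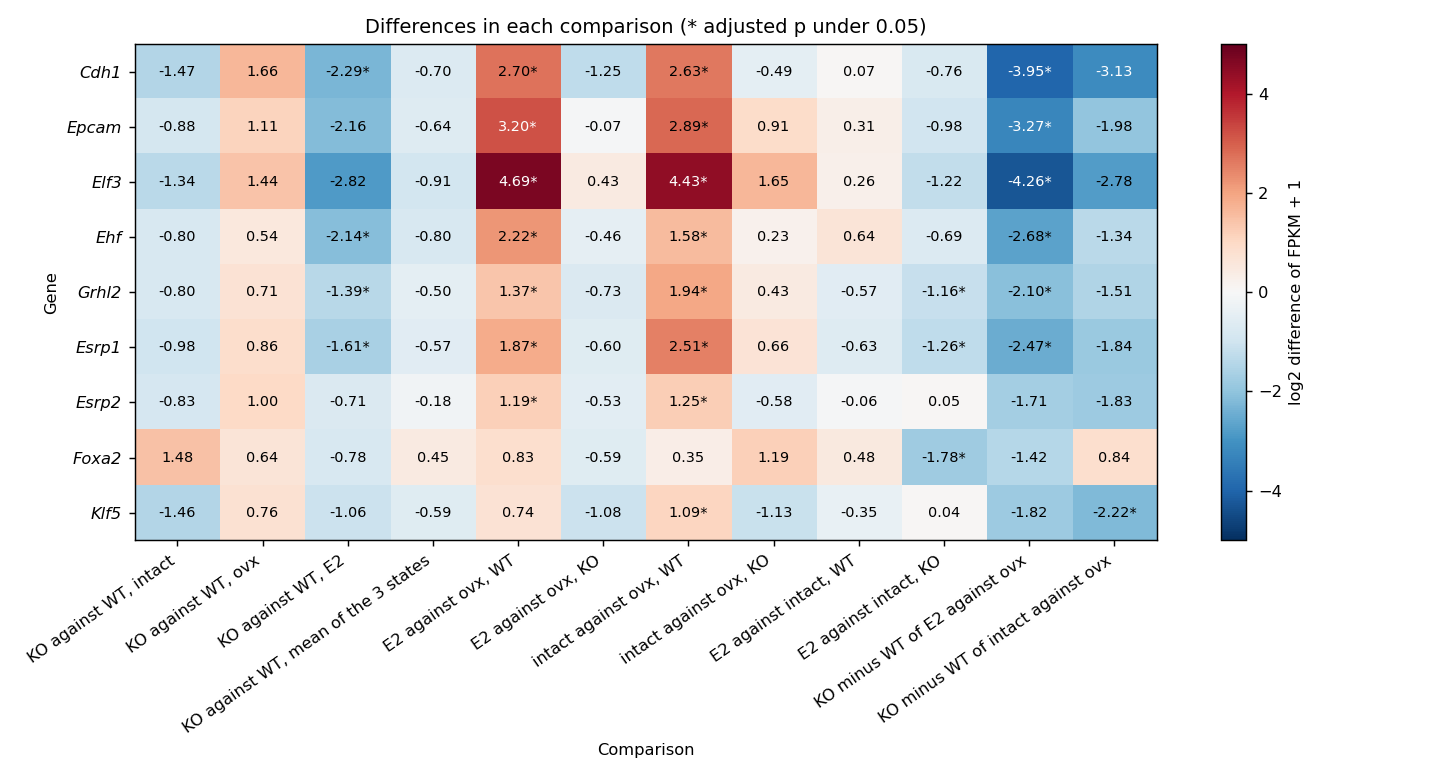
Rows are the 9 tested genes and columns the 12 comparisons, coloured by the log2 difference of FPKM + 1, with an asterisk where the adjusted p was under 0.05. The 2 WT columns against ovx hold 7 and 8 asterisks and the KO columns for the same states hold none.

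In KO uteri no member passed the test between E2 and ovx, and the 1 with an unadjusted p under 0.05 in limma was Klf5. Of the 9 differences 8 were negative, from -1.25 ± 0.64 for Cdh1 to -0.07 ± 0.69 for Epcam, and Elf3 stood at 0.43 ± 0.87. Of 9 tested estrogen-induced genes of the uterus 4 were higher in KO E2, against 2213 of all 13898 tested genes. Sprr2f (a small proline-rich protein gene) was higher by 5.98, Lcn2 (lipocalin 2) by 5.84 and C3 (complement component 3) by 4.72. The summed level of that list ran from 539 to 7444 FPKM in KO E2 and from 26.1 to 262 in KO ovx. Of the 29 other simple epithelial genes 4 fell and none rose (median -0.31), and Cldn3, a claudin, fell by 2.22. Of 8 tested genes of squamous epithelium 3 rose, the keratin genes Krt6b (2.18), Krt5 (2.03) and Krt6a (1.98). Markers of immune cells rose in 8 of 8 macrophage genes, 7 of 8 neutrophil genes and 6 of 7 lymphocyte genes, and 5 of 11 repressors and mesenchymal genes rose, with S100a4 higher by 2.68, Fn1 (fibronectin) by 2.64 and Vim (vimentin) by 2.22. Their part in the members' values was not tested. Without KO E2 replicate 2, the library that lay closest to WT E2, 3 members were called lower in KO E2 than in KO ovx. They were Cdh1 (-2.06), Grhl2 (-1.08) and Esrp1 (-1.06), and the share of all tested genes called in that fit is not given here. In set 3, which holds 1 KO E2 and 3 KO ovx libraries, all 9 differences were negative, from -1.44 for Cdh1 to -0.03 for Esrp2.

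The difference between the genotypes in the response to estradiol was called for 6 of 9 tested members, each with a lower E2 minus ovx difference in KO. It was -4.26 ± 1.23 for Elf3 (adjusted p = 0.0394), -3.95 ± 0.91 for Cdh1 (adjusted p = 0.0164), -3.27 ± 0.97 for Epcam (adjusted p = 0.0432) and -2.68 ± 0.67 for Ehf (adjusted p = 0.0229). It was -2.47 ± 0.56 for Esrp1 (adjusted p = 0.0152) and -2.10 ± 0.51 for Grhl2 (adjusted p = 0.0198). Klf5 (-1.82, adjusted p = 0.0579), Esrp2 (-1.71, adjusted p = 0.0779) and Foxa2 (-1.42, adjusted p = 0.288) did not pass. The calls of Cdh1 and Esrp1 held when each of the 12 libraries was left out in turn. Epcam kept its call only without KO ovx replicate 2 or KO E2 replicate 2, and Elf3 only without those or WT ovx replicate 3. Ehf and Grhl2 lost theirs without WT ovx replicate 1, KO ovx replicate 4 or WT E2 replicate 5. With the 4 sets of libraries as a term, 4 of the 6 were called and Epcam (adjusted p = 0.0705) and Elf3 (adjusted p = 0.0609) were not. Of the 29 other simple epithelial genes 23 were called in the same direction, with a median of -2.82 against -0.14 over all tested genes. Markers of some other cells went the opposite way: all 10 stroma genes (2 called) and all 10 blood endothelial genes (4 called) had positive values. Called higher were 4 of 8 neutrophil genes and 3 of 11 repressors and mesenchymal genes. Other lists went mostly the same way as the members, with 7 of 10 smooth muscle, 7 of 8 squamous and 6 of 8 proliferation genes negative and none called. Their part was not tested. Among the cadherin partners Jup (-2.63), Ctnnb1 (-1.56), Mllt4 and Pvrl2 were called, 4 of 12 in all.

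**Figure D3:**
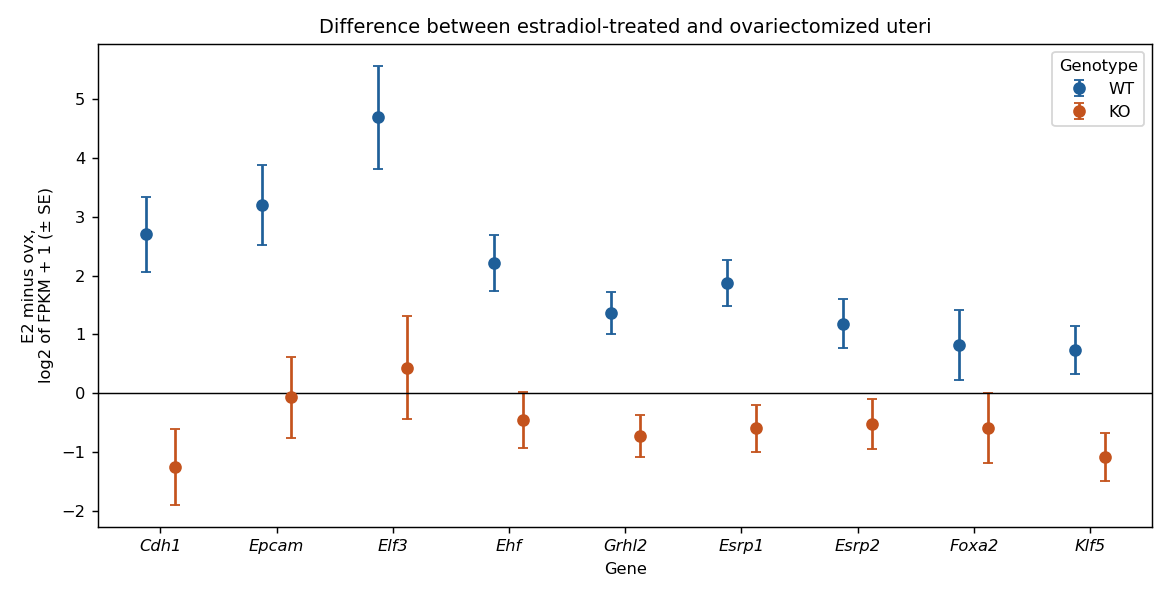
For each tested gene the plot gives the difference between E2 and ovx in log2 of FPKM + 1, with the standard error of the fit as bars, for WT and KO. All 9 WT points lie above 0, and 8 of the 9 KO points lie below it, Elf3 at 0.43 being the exception.

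Under estradiol itself, 4 of 9 tested members were lower in KO than in WT. Cdh1 differed by -2.29 ± 0.64 (adjusted p = 0.0391), Ehf by -2.14 ± 0.47 (adjusted p = 0.0119), Esrp1 by -1.61 ± 0.40 (adjusted p = 0.0207) and Grhl2 by -1.39 ± 0.36 (adjusted p = 0.026). Elf3 (-2.82 ± 0.87, adjusted p = 0.0589) and Epcam (-2.16 ± 0.69, adjusted p = 0.0653) did not pass. The libraries of Cdh1, Ehf, Elf3, Grhl2 and Esrp1 (5 of 9) did not overlap, as for lower values in KO in 12.1% of all tested genes. Cdh1 kept its call only without KO E2 replicate 2, Grhl2 and Esrp1 only without that library or WT E2 replicate 2, and Ehf lost its call without WT E2 replicate 5 or KO E2 replicate 1. In a fit of the 6 E2 libraries alone none of the 9 was called. Without KO E2 replicate 2, 6 members were called lower, Elf3 by -3.90, Epcam by -3.16, Cdh1 by -3.10, Ehf by -2.55, Esrp1 by -2.07 and Grhl2 by -1.74. The share of all tested genes called lower in that fit is not given here, so the count has no background beside it. Cdh1 was lower in KO in set 3 (by -3.16, 1 library against 1) and in set 4 (by -1.85, 2 against 2), and all 9 members had negative differences in both.

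Markers of other cells moved in the same comparison. Of 29 tested simple epithelial genes 12 were lower in KO E2, among them Muc1 (-3.21), Ovol2 (a zinc-finger factor of epithelia, -2.35) and Rab25 (an epithelial trafficking GTPase, -2.25). Of 8 neutrophil genes 5 were higher in KO, and the summed level of the list was 1366 to 14885 FPKM in KO E2 against 71.6 to 2353 in WT E2. The summed macrophage level was 580 to 3124 FPKM in KO E2 and 90.4 to 302 in WT E2. The summed stroma level was 214 FPKM in KO E2 replicate 2 and 1084 or more in the other 2 KO E2 libraries, while WT E2 held 161 to 238. The mesenchymal and repressor list had 2 of 11 genes higher in KO, S100a4 by 2.06 and Zeb2 by 1.31, the latter named after its values were seen. Of 7 lymphocyte genes 4 were called higher in KO. Among lists with no gene called, all 10 smooth muscle genes (median -0.84) and 7 of 8 squamous genes were lower in KO. All 7 adipocyte (median 2.83), 10 blood endothelial and 8 proliferation genes were higher. What part these other cells have in the members' values was not tested.

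**Figure D4:**
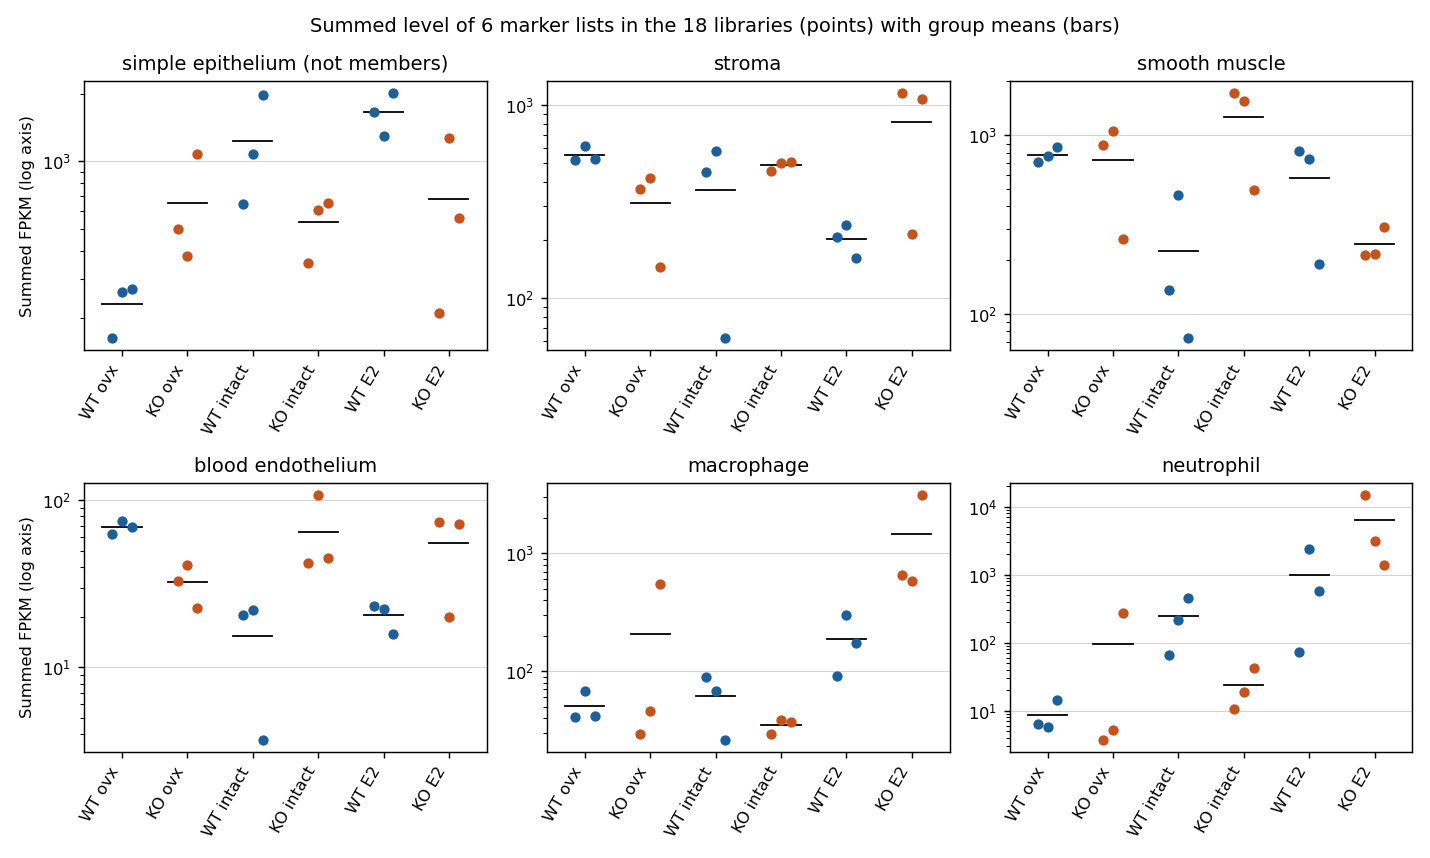
Each panel plots the summed FPKM of 1 marker list on a log axis for the 6 groups, with libraries as points and group means as bars. Simple epithelium is lowest in WT ovx, at 164 to 271 FPKM, and neutrophil genes are highest in KO E2, at 1366 to 14885 FPKM.

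Without ovaries or hormone, all 9 tested members had higher means in KO ovx than in WT ovx, with differences from 0.54 for Ehf to 1.66 ± 0.64 for Cdh1 (adjusted p = 0.145). None was called by limma, where 5.42% of all tested genes were called. An unadjusted p under 0.05 was seen for 3 (Cdh1, Esrp1 and Esrp2), with no share over all tested genes to set beside it. The libraries of Cdh1, Epcam, Esrp2 and Grhl2 did not overlap, as for higher KO values in 26.8% of all tested genes. Of the 29 other simple epithelial genes 3 were higher in KO ovx, namely Tmprss2 (a membrane protease, 2.20), Cldn4 (a claudin, 2.16) and Spint1 (a protease inhibitor, 1.76), and so was the cadherin partner Jup (1.28). The summed simple epithelial level was 379 to 1074 FPKM in KO ovx and 164 to 271 in WT ovx. The summed stroma level was 144 to 417 FPKM in KO ovx and 521 to 616 in WT ovx, and the summed endothelial level 22.7 to 41.2 and 62.7 to 74.9, with no gene of either list called. Their part was not tested. Without KO ovx replicate 4, Foxa2 turned from 0.64 to -0.25.

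In intact uteri 8 of 9 tested members had lower means in KO than in WT, and Foxa2 a higher one. None was called by limma, where 2.18% of all tested genes were called. An unadjusted p under 0.05 was seen for 5, a count with no share over all tested genes beside it. Markers of other cells differed beside them: the 29 other simple epithelial genes all had negative differences (1 called), the 10 smooth muscle genes all had positive ones (1 called, median 2.53), and 3 of 10 blood endothelial genes were called higher. The summed smooth muscle level was 494 to 1719 FPKM in KO intact and 73.6 to 464 in WT intact, and the summed endothelial level 42.0 to 108 and 3.70 to 21.9. Their part was not tested. Of the members, Klf5 came nearest, at -1.46 ± 0.41 (adjusted p = 0.0797), then Foxa2 at 1.48 ± 0.59 (adjusted p = 0.197), Esrp1 at -0.98 ± 0.40 and Cdh1 at -1.47 ± 0.64. The libraries of 5 members lay apart with KO lower, which 12.5% of all tested genes did, and those of Foxa2 lay apart with KO higher, which 10.3% did. Klf5 was lower by -1.37 in set 1 (2 libraries against 2) and by -1.64 in set 2 (1 against 1), and Foxa2 higher by 1.48 in both. The difference between genotypes in intact against ovx was called for Klf5 (-2.22 ± 0.58, adjusted p = 0.0432), 1 of 9, with 3.6% of all tested genes called in that direction. That call held only without WT intact replicate 2 or KO ovx replicate 2. Cdh1 stood at -3.13 ± 0.91 (adjusted p = 0.061). Averaged over the 3 states, none of the 9 was called between KO and WT (5.9% of all tested genes were). Of the 9, 4 had an unadjusted p under 0.05, again with no share over all tested genes beside it.

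Within KO, none of the 9 was called between intact and ovx, where 15.9% of all tested genes were called, and Klf5 alone had an unadjusted p under 0.05. Foxa2 differed by 1.19 there and by 2.08 (adjusted p = 0.00544) without KO ovx replicate 4. Between KO E2 and KO intact 3 of 9 were lower, Foxa2 by -1.78 (adjusted p = 0.0387), Esrp1 by -1.26 (adjusted p = 0.0294) and Grhl2 by -1.16 (adjusted p = 0.0278), where 10.2% of all tested genes were lower. Their libraries did not overlap, which 19.4% of all tested genes showed in that direction. Higher in the same comparison were 7 of 8 neutrophil, 7 of 8 macrophage, 7 of 7 lymphocyte and 6 of 7 adipocyte genes, and lower were 7 of 10 smooth muscle genes and 6 of 12 cadherin partners, whose part was not tested. The count of members was 0 without KO intact replicate 1, KO intact replicate 4 or KO E2 replicate 1 and 5 without KO E2 replicate 2. Shares of all tested genes called in those fits are not given here.

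The members were also set against simple epithelial keratins, as log2 of FPKM + 1 minus the mean of Krt7, Krt8, Krt18 and Krt19 in the same library. On this scale none of the 9 was called by limma between KO and WT in any state. The spread of the keratins enters every such value. In E2 the SE was 0.75 for Grhl2, against 0.36 without the reference, but 0.71 against 0.64 for Cdh1 and 0.70 against 0.87 for Elf3. A lack of calls therefore cannot show that the members follow the keratins. The differences also moved for the 4 members called in E2 without the reference. Grhl2 went from -1.39 to -0.00335, Esrp1 from -1.61 to -0.22, Ehf from -2.14 to -0.75 and Cdh1 from -2.29 to -0.90. The share of all tested genes called was 1.86% higher and 0.0935% lower in intact uteri and 0.0432% higher and 1.34% lower in ovx. In E2 the differences ran from -1.43 ± 0.70 for Elf3 (adjusted p = 0.137) to 0.68 ± 0.76 for Esrp2. In that comparison 9.21% of all tested genes were called higher and 0.101% lower. The difference between genotypes in the response to estradiol ran from -1.32 ± 0.99 for Elf3 to 1.52 ± 1.10 for Foxa2 with none called, where 82.8% of all tested genes were called higher relative to the keratins and 0.108% lower. Between WT E2 and WT ovx, Klf5 (-2.87), Foxa2 (-2.79), Esrp2 (-2.43), Grhl2 (-2.24) and Esrp1 (-1.74) were lower relative to the keratins. In that comparison 95.1% of all tested genes were called lower, and Cdh1, Epcam, Ehf and Elf3 were not called. The called members had WT ovx means of 0.643 to 2.12 FPKM and the others 3.47 to 11.5. The scale understates changes of low genes, so these calls cannot be told apart from an effect of level. With Krt8 and Krt18 alone as reference, Esrp1 was no longer called between WT E2 and WT ovx and Elf3 was called higher, by 1.65. Between WT intact and WT ovx, Foxa2 (-2.71), Klf5 (-1.97), Esrp2 (-1.81) and Ehf (-1.49) were lower relative to the keratins, with 94.6% of all tested genes called lower. With Krt8 and Krt18 alone, Esrp2 (adjusted p = 0.0593) and Ehf (adjusted p = 0.127) were not called there and Elf3 was called higher, by 1.75. The difference between genotypes in intact against ovx was 3.37 ± 1.10 for Foxa2 (adjusted p = 0.0218), the 1 member called, with 48.3% of all tested genes called higher.

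Across the 18 libraries, the tested members other than Foxa2 varied together, though Klf5 did so unevenly. As a description over libraries that share groups and tissue, Pearson's r was 0.985 between Grhl2 and Esrp1 and 0.962 between Epcam and Elf3. Klf5 had 0.794 with Esrp2 and 0.764 with Cdh1, but 0.492 with Epcam and 0.401 with Elf3. Foxa2 had 0.128 to 0.449 with the other 8. With the mean of the 9 standardised profiles, r was 0.966 for Cdh1, 0.96 for Esrp1, 0.735 for Klf5 and 0.483 for Foxa2. Each member is itself part of that mean, which raises its r. That mean profile was lowest in KO E2 replicate 1 (-1.63) and WT ovx replicate 1 (-1.30) and highest in WT E2 replicate 5 (1.46) and WT intact replicate 4 (1.28), and KO E2 replicates 2 and 3 stood at 0.12 and -0.57. Of all other tested genes, the 10 most like it were Ap1m2, an epithelial clathrin adaptor subunit gene (r = 0.977, from 2.21 to 29.0 FPKM), Mtap7 (0.977), Epb4.1l4b (0.965), Ston2, 1110008L16Rik, Frk, Grb7, Macc1, Fam20b and Kcnk1 (0.948).

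Of 16 tested relatives of the members by family, 4 rose and 3 fell from ovx to E2 in WT, counts near the shares over all tested genes (32.3% higher and 15.2% lower), with Rbm47 (an RNA-binding protein, 2.45) higher and Klf9 (a Krüppel-like factor, -2.12) lower. Between KO and WT in E2 1 of the 16 was called, Spdef, an ETS-family factor below 5 FPKM that was named after its values were seen, by -1.39. Of 7 tested gland genes 1 was called in E2 between KO and WT, Wnt7b (a WNT ligand gene) by -1.73, and none in the intact state, where 2 of the 7 differences were positive and 4 negative (median -0.03).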

How the data were processed

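RNA abundance was given for 18 libraries in 1 table of FPKM per gene. The authors made these FPKM values with Cufflinks 2.0.2 and Cuffdiff, per the submitters' processing notes. Aligner, annotation and genome build: not given in the sources used here. Library groups came from the sample labels. Genes with at least 1 FPKM in at least 3 libraries (13898 of 25791) were tested on log2(FPKM + 1), a scale that understates changes of low genes. limma 3.58.1 in R 4.3.3 fitted 1 mean per group over all 18 libraries, with moderated variances and a mean trend, and p-values were Benjamini-Hochberg adjusted over all tested genes in each of 12 comparisons (threshold 0.05). The fit was tested on simulated data. Unadjusted p-values under 0.05 were counted among the members only, with no share over all tested genes. Figures used Python 3.11.15 and matplotlib 3.10.9. The members and the 17 gene lists were chosen with earlier results of these data known. Of each list at most 4 genes per comparison were named, by the size of differences past the threshold, if either group averaged 5 FPKM or more, and of all other genes the 10 most like the mean member profile. Replicate numbers did not pair the libraries: correlations of deviations ran from -0.18 to 0.34. Sets of libraries were formed from shared steps of values up to 0.05 FPKM, after seeing the data, with their number fixed at 4. Other scalings, pseudocounts and filters and leaving out each library were tried.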

Additional observations from a re-analysis of the deposited data

Results flagged for a closer look

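The effect of estradiol differed between genotypes, by limma's interaction contrast, for 6 of 9 tested members, where 6.95% of all tested genes were called in that direction. In log2 of FPKM + 1, KO minus WT, the difference was -3.95 for Cdh1, -2.68 for Ehf, -4.26 for Elf3, -3.27 for Epcam, -2.47 for Esrp1 and -2.10 for Grhl2. The difference between intact and ovx uteri differed between genotypes for Klf5, by -2.22, where 3.6% of all tested genes were called in that direction. With the sets of libraries as a term, Epcam (adjusted p = 0.0705) and Elf3 (adjusted p = 0.0609) were no longer called, and neither was Klf5. The Klf5 call was also lost in 10 of 12 fits that left out 1 library. Of the estradiol calls, that of Epcam was lost in 10 of 12 such fits and that of Elf3 in 9. Those of Ehf and Grhl2 were lost in 3 each, and those of Cdh1 and Esrp1 in 0. Dixon's test for an outlying sample was not run on groups of 3.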

How the results depend on the processing

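Of 1761 log2 differences of members recomputed under an alternative, 1561 kept their direction and side of the threshold, 116 lost the call, 54 gained it and 30 changed sign, 0 of them called before or after. Leaving out 1 library at a time, the number of members called ran from 0 to 6 between KO and WT in E2, 0 to 3 for the mean of the 3 states, 6 to 7 for E2 against ovx in WT and 0 to 3 in KO, 5 to 8 for intact against ovx in WT and 0 to 1 in KO, 0 to 5 for E2 against intact in KO, and 2 to 7 (E2) and 0 to 3 (intact) for the differences between genotypes. Counts were 2 for the genotype difference in E2 without WT ovx replicate 1, KO ovx replicate 4 or WT E2 replicate 5. For the counts of members in this section, the shares of all tested genes called in the same fits are not given here.

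Quantile normalization gave 1 call between KO and WT in intact uteri, 2 for E2 against ovx in KO, 1 for intact against ovx in KO and 3 for the genotype difference in intact, and median-ratio scaling gave 1 and 1 for the KO comparisons of E2 and intact with ovx. The sets as a term gave 1 between KO and WT in intact uteri and 0 for the genotype difference in intact, and left 4 of 6 calls in the genotype difference in E2 (not Epcam or Elf3). A set term could not be fitted for intact against ovx or E2. The genotype difference in intact against ovx had 0 calls with a pseudocount of 0.1 FPKM or no filter and 2 with a minimum of 5 FPKM. Fits of only the groups compared gave 0 between KO and WT in E2, 1 for intact against ovx in KO and 1 for E2 against intact in KO. With the replicate block, a pairing that the data did not bear out, counts were 1 (KO against WT, intact), 0 (KO against WT, E2), 1 (intact against ovx, KO), 1 (E2 against intact, KO), 0 (genotype difference in E2) and 0 (in intact), and Epcam stood at 0.40 for E2 against ovx in KO. Leaving out KO E2 replicate 2, KO ovx replicate 4 and WT intact replicate 4 together, chosen after seeing the data, gave 6 for the mean of states, 1 for E2 against ovx and 4 for intact against ovx in KO, 6 for E2 against intact in KO and 0 for the genotype difference in intact. The cause was not tested.

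Signs changed as follows, in log2 differences. With the 3 libraries left out, Foxa2 was -0.25 for KO against WT in ovx, -0.0156 for the mean of states and 0.11 for E2 against ovx in KO, Elf3 -0.15 for the last, and Esrp2 0.43 (WT) and -0.12 (KO) for E2 against intact. Quantile normalization gave -0.18 (Cdh1), -0.0123 (Epcam) and -0.0474 (Elf3) for E2 against intact in WT, and a pseudocount of 0.1 gave -0.0298 for Esrp2 in KO. Without 1 library, Foxa2 ran from -0.25 to 1.21 for KO against WT in ovx. E2 against ovx in KO ran from -1.07 to 0.58 for Epcam, -0.87 to 0.14 for Ehf, -0.64 to 1.08 for Elf3 and -1.17 to 0.29 for Foxa2, and intact against ovx in KO from -0.090 to 0.62 for Ehf. E2 against intact in WT ran from -0.33 to 0.52 for Cdh1, -0.068 to 0.81 for Epcam and -0.70 to 1.05 for Elf3, and -0.36 to 0.43 for Esrp2. In KO it ran from -0.20 to 0.47 for Esrp2 and -0.28 to 0.40 for Klf5.

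Scaling also moved the median of all genes, by -0.37 (median-ratio) and -0.29 (quantile) for E2 against ovx in WT, -0.36 and -0.16 for intact against ovx in WT, and 0.27 and 0.15 for the genotype difference in E2. The higher share of all calls went from 67.9% to 39.9% and 43.6%, from 65.9% to 35.7% and 52.6%, and from 36.8% to 58.4% and 48.9%. Between KO and WT in ovx it went from 85.4% to 55.0% and 51.3%. The depth in reads is unknown.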
